A study of Mus musculus with 18 samples.

Results

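The 10 genes that mark adipose progenitors and fibroblasts, Pdgfra, Pdgfrb, Dpp4, Pi16, Cd55, Icam1, Dlk1, Ly6a, Thy1 and F3, were followed across the subcutaneous white adipose tissue (sWAT) and brown adipose tissue (BAT) of Csn8AKO and Ctrl mice. They were chosen by name, as genes known from the stromal cells of fat, and are 10 of the 55487 genes counted. All 10 passed the filter on low counts in every comparison. RNA was sequenced from 18 libraries, each taken as 1 mouse as the study's methods give its n: sWAT of 4 Ctrl and 4 Csn8AKO mice at 12 weeks of age, and BAT of 5 Ctrl and 5 Csn8AKO mice at 4 weeks of age. All were male, fed chow and fasted for 4 h. Both genotypes carry a floxed Csn8 allele on both chromosomes (Csn8 f/f). Csn8AKO mice also carry Adipoq-Cre, in which the adiponectin promoter drives Cre recombinase, so that exons 4 to 6 are removed in adipocytes. Whether the progenitors and fibroblasts that these genes mark keep these exons was not tested. Ctrl mice, labelled WT, are Csn8 f/f littermates. Since the BAT mice were younger than the sWAT mice, depot and age cannot be told apart. These are whole-tissue libraries, in which more cells of a type, more RNA per cell and less RNA from other cells cannot be told apart either.

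Fat holds a population of fibroblast-like progenitors around its vessels and in its septa, from which new adipocytes form. PDGFRα and PDGFRβ, the receptors for platelet-derived growth factor, are used to find these cells, PDGFRβ being shared with pericytes and smooth muscle cells, together with the surface proteins SCA1 (Ly6a) and THY1, the latter also carried by T cells. An early, interstitial progenitor is marked by the peptidase DPP4, by PI16 and by CD55, a protein that limits complement on the cell surface. A committed preadipocyte is marked by the adhesion molecule ICAM1, which leukocytes and endothelium also carry, and by DLK1 (also called PREF1), an imprinted transmembrane protein that restrains differentiation. F3, tissue factor, starts coagulation and marks a further stromal population that restrains adipogenesis in its neighbours.

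The stretches just before the transcription starts of 2 early and 2 committed genes are shown because these are the genes whose levels are set against each other below, and because Dpp4 and Icam1 rose and Dlk1 fell in Csn8AKO BAT. Each is the 250 bases before the RefSeq start in GRCm38.p6, read 5′ to 3′ on the strand of the gene. Capitals mark matches to any of 5 short motifs searched on both strands, none of which overlapped another here. The TATA box was searched as TATAAA and the GC box as GGGCGG. For NF-kB the letters were GGAAATTCC, and for forkhead proteins TGTTTAC. For TEAD proteins they were CATTCC.
Dpp4, chr2:62412232-62412481, minus strand: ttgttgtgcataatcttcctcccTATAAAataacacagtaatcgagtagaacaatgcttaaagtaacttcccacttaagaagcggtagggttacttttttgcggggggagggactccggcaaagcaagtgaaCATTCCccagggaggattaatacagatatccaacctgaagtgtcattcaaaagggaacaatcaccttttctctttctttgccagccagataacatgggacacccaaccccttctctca
Cd55, chr1:130462745-130462994, minus strand: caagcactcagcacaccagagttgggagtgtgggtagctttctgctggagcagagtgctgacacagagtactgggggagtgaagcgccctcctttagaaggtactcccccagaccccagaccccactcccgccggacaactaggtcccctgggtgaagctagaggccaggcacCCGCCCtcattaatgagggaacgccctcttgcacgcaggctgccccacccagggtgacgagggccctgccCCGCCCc
Icam1, chr9:21015690-21015939, plus strand: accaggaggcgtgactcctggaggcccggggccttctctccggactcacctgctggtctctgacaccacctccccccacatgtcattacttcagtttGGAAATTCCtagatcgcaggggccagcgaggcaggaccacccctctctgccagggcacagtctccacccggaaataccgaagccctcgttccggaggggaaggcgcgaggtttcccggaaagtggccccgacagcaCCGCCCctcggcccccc
Dlk1, chr12:109452573-109452822, plus strand: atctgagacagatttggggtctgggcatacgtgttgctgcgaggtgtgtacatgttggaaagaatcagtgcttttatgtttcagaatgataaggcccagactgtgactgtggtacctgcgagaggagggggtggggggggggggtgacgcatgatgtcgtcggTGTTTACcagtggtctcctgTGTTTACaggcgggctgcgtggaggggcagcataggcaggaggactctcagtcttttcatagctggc

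The Dpp4 stretch held a TATAAA from 227 to 222 bases before the start and a CATTCC from 118 to 113, and its GC content was 43.6%. Cd55 had GC boxes on the opposite strand, from 77 to 72 and from 7 to 2 bases before the start, with a GC content of 64.0%. Icam1 held the NF-kB letters from 153 to 145 bases before its start and a GC box on the opposite strand from 17 to 12, with 65.2% GC. In Dlk1 the forkhead letters occurred at 87 to 81 and at 67 to 61 bases before the start, with 54.8% GC. Over all 32851 windows of this length, the median GC content was 52.4%. TATAAA was present in 12.4% of them on either strand, GGGCGG in 32.7%, GGAAATTCC in 0.286%, TGTTTAC in 3.17% and CATTCC in 12.6%. The motifs were picked with these stretches in view, and a match is a description of the letters, not evidence of binding. Dpp4 lies on chromosome 2 (62330073 to 62412231), Pi16 on 17 (29317680 to 29330593), Cd55 on 1 (130439027 to 130462744), Icam1 on 9 (21015985 to 21028817) and Dlk1 on 12 (109452823 to 109463336), in GRCm38 with GENCODE M21, and the counts cover all their exons.

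The libraries held 15835721 to 23109603 counted reads in sWAT and 26658593 to 66719937 in BAT. Brown adipocyte genes (7 genes, Ucp1 and Cidea among them) summed to 4321 to 9237 CPM (reads scaled to library size, here with TMM factors over all 18 libraries) in BAT and to at most 145.7 in sWAT, as the labels have it. Csn8, listed under the symbol Cops8, was at 33.9 ± 1.59 CPM (SD, n = 4) in Ctrl and 31.0 ± 3.37 (n = 4) in Csn8AKO sWAT, a difference that did not pass the test (log2 fold change -0.12, edgeR adjusted p = 0.623), and at 40.9 ± 3.23 (n = 5) and 32.8 ± 3.63 (n = 5) in BAT, where it was lower (log2 fold change -0.30, edgeR adjusted p = 0.0211). The count of the gene still takes in transcripts that lack exons 4 to 6, and counts per exon were not analysed here. In sWAT, Ctrl replicate 1 and Csn8AKO replicate 2 stood apart: 8 B cell genes summed to 197 and 507 CPM in them and to at most 18.2 in the other 6 libraries, and 12 T cell genes to 401 and 481 CPM against at most 50.8. In BAT, Csn8AKO replicates 1 and 5 held 242.9 and 460 CPM of 8 skeletal muscle genes. The other 8 BAT libraries held at most 10.9. All sWAT libraries held more: 360.1 to 4769 CPM in Ctrl mice, with replicate 3 highest. Csn8AKO sWAT libraries held 172.4 to 2897 CPM, with replicate 4 highest. Fits described below as without muscle RNA left out only these BAT libraries, replicates 1 and 5 of Csn8AKO mice. Ribosomal RNA took 1.8% to 19.8% of the reads in Ctrl and 3.96% to 47.8% in Csn8AKO sWAT, and 0.863% to 15.1% in BAT. Marker counts within each tissue and between depots are given with and without the libraries rich in B and T cell RNA or those BAT libraries. Most counts of the gene lists are given with all libraries only.

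**Figure D1:**
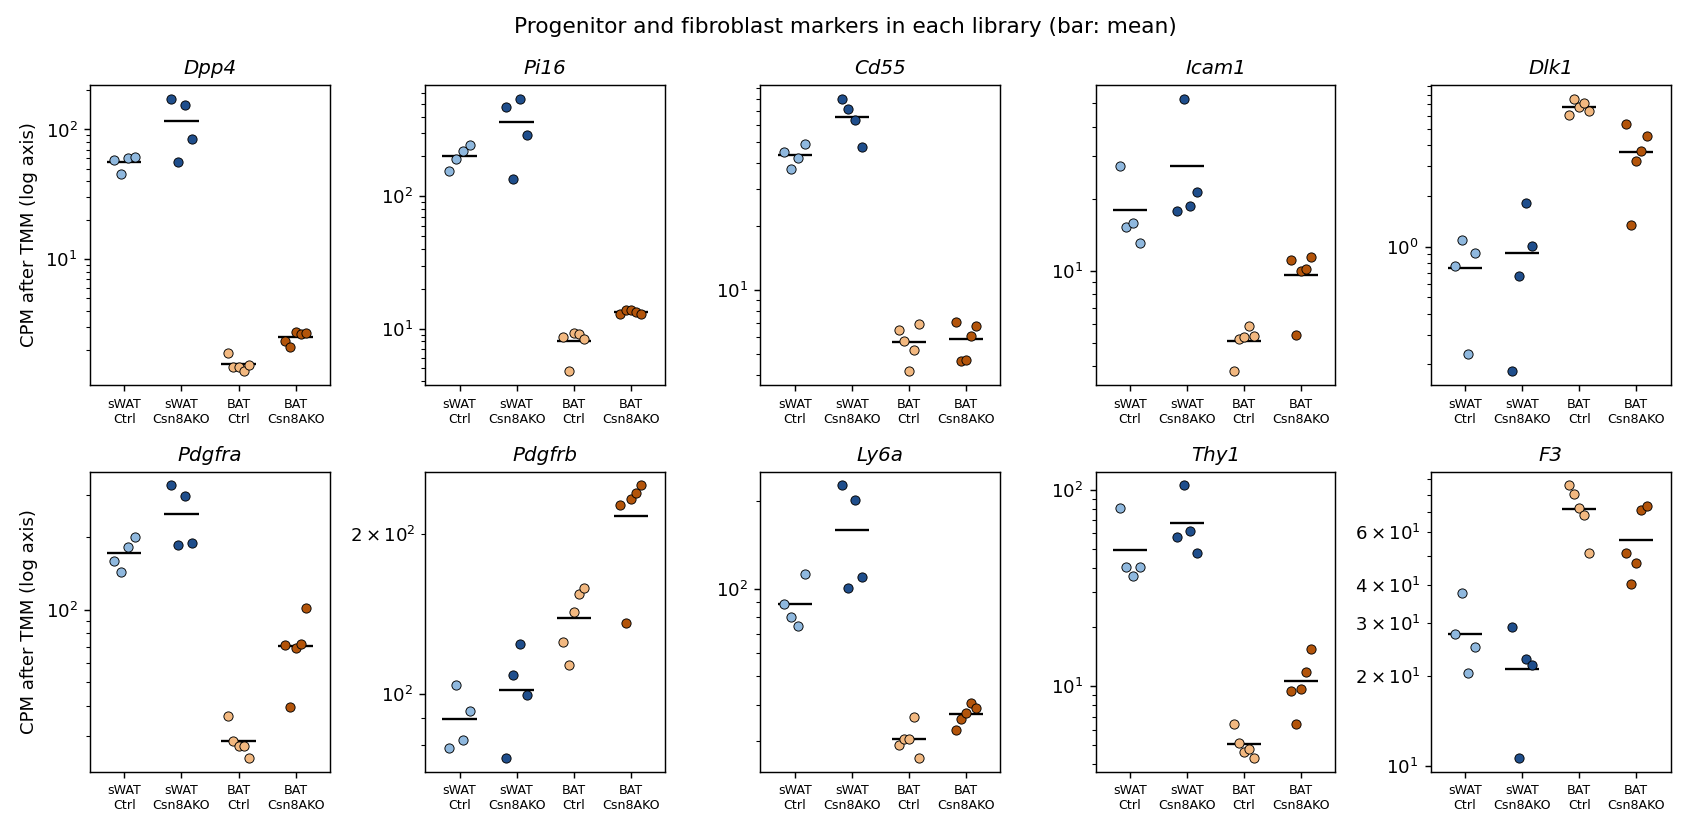
CPM after TMM of each of the 10 genes (log axis) in every library of the 4 groups, with a bar at the mean. Dpp4, Pi16, Cd55, Icam1, Pdgfra, Ly6a and Thy1 sat lower in BAT than in sWAT, while Dlk1, F3 and Pdgfrb sat higher, and in BAT the Csn8AKO points of Dpp4, Pi16 and Pdgfra lay above and those of Dlk1 below every Ctrl point.

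The first comparison asks how the markers differ between the depots of Ctrl mice. All 10 did: 3 were higher and 7 lower in BAT than in sWAT at an adjusted p under 0.05 (edgeR's quasi-likelihood test over all 4 groups, Benjamini-Hochberg adjustment over 22509 genes), where 25.9% of all genes tested were higher and 25.7% lower. The Ctrl libraries of the depots did not overlap for any of the 10, but the share of all genes for which this held was not counted. The early markers Dpp4 and Pi16 were the most depleted of the 10 in BAT, and Cd55 less so than Thy1. Dpp4 stood at 58.1, 45.2, 60.3 and 61.9 CPM in the 4 sWAT Ctrl libraries and at 1.92, 1.49, 1.49, 1.37 and 1.53 CPM in the 5 BAT Ctrl libraries, 36.3-fold lower (log2 fold change -5.18 ± 0.26 SE, adjusted p = 3.23e-11). Pi16, at 156, 192, 218 and 245 CPM in sWAT, was at 8.69, 4.75, 9.35, 9.13 and 8.34 CPM in BAT, 25.2-fold lower (log2 fold change -4.66 ± 0.32 SE, adjusted p = 1.18e-09). Cd55 differed less, from 44.7, 37.4, 41.9 and 49.0 CPM to 6.50, 5.77, 4.14, 5.24 and 6.90 CPM (7.58-fold lower, log2 fold change -2.92 ± 0.17 SE, adjusted p = 8.33e-11).

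The committed markers went in opposite directions. Icam1 was at 27.4, 15.3, 15.9 and 13.1 CPM in sWAT, the highest of them in the Ctrl library rich in B and T cell RNA, and at 3.80, 5.17, 5.28, 5.89 and 5.36 CPM in BAT, 3.51-fold lower (log2 fold change -1.81 ± 0.31 SE, edgeR adjusted p = 7.06e-05). Dlk1, in contrast, was barely detected in adult sWAT, with 0.765, 1.10, 0.229 and 0.913 CPM from 4 to 22 reads a library, and stood at 6.04, 7.58, 6.79, 7.15 and 6.4 CPM in BAT, from 224 to 432 reads, 8.91-fold higher (log2 fold change 3.16 ± 0.48 SE, edgeR adjusted p = 1.98e-05). Few reads stand behind the sWAT values of Dlk1, so that its fold is the least precise of the 10.

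Among the pan-progenitor markers, Pdgfra was 5.99-fold lower in BAT (172 ± 25.2 against 28.7 ± 4.47 CPM, SD, n = 4 and 5), Thy1 9.81-fold lower (49.4 ± 21.0 against 5.05 ± 0.835 CPM) and Ly6a 2.91-fold lower (88.8 ± 16.4 against 30.5 ± 3.61 CPM), with edgeR adjusted p of 1.24e-08, 2.60e-08 and 1.96e-06. Pdgfrb was 1.55-fold higher in BAT (138.7 ± 19.2 against 89.5 ± 11.4 CPM, adjusted p = 0.00403, but 0.214 with library-size scaling in place of TMM), and so was F3, 2.60-fold (71.6 ± 13.2 against 27.6 ± 7.26 CPM, adjusted p = 1.91e-04). Of 11 mural genes, 7 were likewise higher in BAT and 1 lower, whereas of the 14 fibroblast matrix genes, Dcn and Col1a1 among them, 13 were lower and 0 higher (median log2 fold change -2.71, against 0.03 over all genes). Leaving out both sWAT libraries rich in B and T cell RNA left the same 3 and 7 counts, and put Thy1 at -2.98 and Icam1 at -1.56 on the log2 scale.

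When the libraries were scaled to the geometric mean of those 14 fibroblast genes in place of TMM, which sets each marker against the fibroblast RNA of its own library, the median of all genes moved to 2.45 on the log2 scale and 4 markers were higher and 3 lower in BAT, against 85.5% and 3.58% of all genes. Dpp4 (log2 fold change -2.78, edgeR adjusted p = 8.99e-12), Pi16 (-2.21, adjusted p = 3.36e-09) and Thy1 (-0.94, adjusted p = 0.0141) stayed lower. Pdgfra (-0.18, adjusted p = 0.363) and Cd55 (-0.50, adjusted p = 0.0622) no longer passed the test, Icam1 was at 0.59 (adjusted p = 0.211) and Ly6a turned higher (0.89, adjusted p = 3.73e-04). Dlk1, F3 and Pdgfrb were higher, as most genes were under this scaling.

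**Figure D2:**
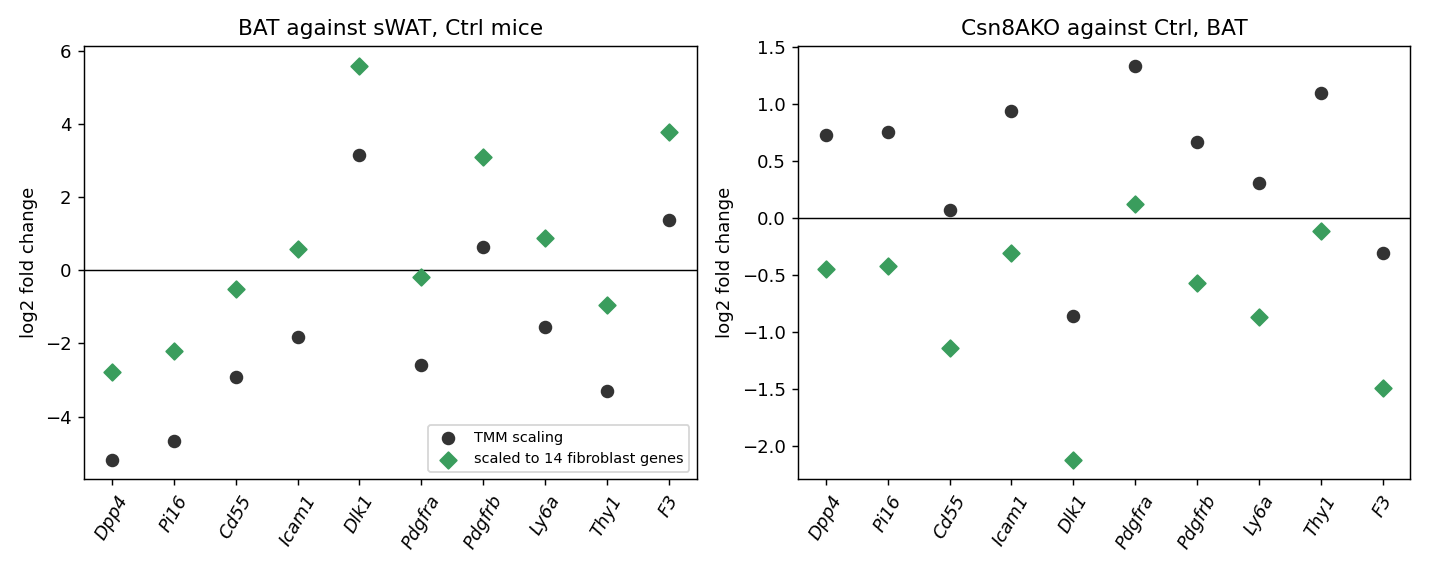
Log2 fold change of the 10 genes between depots in Ctrl mice (left) and between genotypes in BAT (right), with TMM scaling (circles) and with libraries scaled to 14 fibroblast genes (diamonds). Against the fibroblast genes Dpp4 and Pi16 remained the lowest in the depot comparison, at -2.78 and -2.21, while in BAT all markers but Pdgfra fell below 0 and Dlk1 reached -2.12.

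Levels of different genes can be compared per kilobase of exon (CPM per kb). In sWAT of Ctrl mice Ly6a led with 73.7 ± 13.6 CPM per kb (SD, n = 4), followed by Pi16 (31.9 ± 5.96) and a group of Pdgfra (17.1 ± 2.51), Thy1 (16.5 ± 7.01) and Pdgfrb (16.3 ± 2.08) whose ranges overlapped. F3, Dpp4 and Cd55 came next, at 10.9 ± 2.87, 8.92 ± 1.2 and 8.91 ± 1.00 CPM per kb, also overlapping, then Icam1 (4.11 ± 1.48) and last Dlk1 (0.133 ± 0.0663), both apart from their neighbours. In BAT of Ctrl mice F3 (28.3 ± 5.23 CPM per kb, n = 5), Pdgfrb (25.3 ± 3.50) and Ly6a (25.3 ± 2.99) overlapped at the top, well apart from Pdgfra (2.86 ± 0.446) and Thy1 (1.69 ± 0.279). Pi16, Dlk1, Cd55 and Icam1 followed at 1.27 ± 0.296, 1.2 ± 0.107, 1.18 ± 0.224 and 1.17 ± 0.178 CPM per kb with overlapping ranges, and Dpp4 was last, at 0.247 ± 0.0329. Dlk1 thus shared a band with Pi16 and Cd55 in BAT and lay below all the other markers in sWAT.

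In BAT, deletion of Csn8 in adipocytes was accompanied by a higher share of the counted reads for most of these stromal markers. Of the 10, 7 were higher and 1 lower in Csn8AKO than in Ctrl mice (edgeR's quasi-likelihood test, adjusted p under 0.05 over 22345 genes), against 16.0% and 15.8% of all genes tested, and their median log2 fold change was 0.69 against 0.01 over all genes. For 4 of the 10, Pdgfra, Dpp4, Pi16 and Dlk1, the genotypes did not overlap, against 21.1% of all genes. The fold changes below come from the fit of each tissue on its own, the CPM from a scaling common to the 18 libraries. CPM is a share of a library, and the paper reports severe loss of BAT at this age. The sum of 12 adipocyte genes was 13450 to 15620 CPM in Ctrl and 11290 to 13770 CPM in Csn8AKO BAT. Of these genes, 2 were called higher and 3 lower. Whether lost adipocyte RNA raised the share of the markers was not tested.

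The early markers Dpp4 and Pi16 rose by like amounts. Dpp4 went from the 1.37 to 1.92 CPM of Ctrl BAT to 2.36, 2.11, 2.75, 2.68 and 2.7 CPM in the 5 Csn8AKO libraries (log2 fold change 0.72 ± 0.16 SE, edgeR adjusted p = 0.00332), on 52 to 191 reads a library. Pi16 went from 4.75 to 9.35 CPM in Ctrl mice to 12.9, 13.8, 13.8, 13.4 and 12.8 CPM (log2 fold change 0.75 ± 0.16 SE, edgeR adjusted p = 0.00220). Every Csn8AKO library was above every Ctrl library for both. Cd55, the third early marker, did not follow: its Csn8AKO libraries, at 7.11, 4.64, 4.70, 6.09 and 6.76 CPM, lay within or just above the 4.14 to 6.90 CPM of Ctrl mice (log2 fold change 0.07 ± 0.17 SE, edgeR adjusted p = 0.804).

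The committed markers split. Icam1 reached 11.1, 5.41, 10.0, 10.2 and 11.4 CPM in Csn8AKO BAT against 3.80 to 5.89 CPM in Ctrl mice (log2 fold change 0.94 ± 0.19 SE, edgeR adjusted p = 0.00178), with only replicate 2 inside the Ctrl range. Dlk1 fell to 5.36, 1.34, 3.21, 3.69 and 4.53 CPM from 6.04 to 7.58 CPM (log2 fold change -0.86 ± 0.26 SE, edgeR adjusted p = 0.0226). All 5 Csn8AKO libraries were below all 5 Ctrl libraries. The call of Dlk1 depended on the scaling and on single libraries: its edgeR adjusted p was 0.113 with library-size scaling, 0.0576 without Csn8AKO replicate 3 and 0.0524 without Csn8AKO replicate 4, its log2 fold change ran from -1.05 to -0.66 with each library left out, and without the 2 libraries that held muscle RNA it was -1.26 (adjusted p = 0.00433).

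The receptors and surface markers of progenitors rose as well. Pdgfra showed the largest change of the 10, from 36.2, 28.5, 27.2, 27.2 and 24.3 CPM in Ctrl BAT to 71.4, 39.7, 69.5, 72.5 and 102 CPM in Csn8AKO BAT, 2.52-fold higher (log2 fold change 1.33 ± 0.21 SE, edgeR adjusted p = 5.88e-04). No Csn8AKO library fell within the Ctrl range, and replicate 2 was the closest to it. Thy1 was 2.13-fold higher (6.38 to 15.5 against 4.30 to 6.45 CPM, adjusted p = 9.17e-04) and Pdgfrb 1.58-fold (136 to 247 against 113 to 158 CPM, adjusted p = 0.00480), each with 4 of 5 Csn8AKO libraries above every Ctrl library. Ly6a changed least among those called, 1.23-fold (32.7 to 40.5 against 26.2 to 36.1 CPM, adjusted p = 0.0223), and was not called with Ctrl replicate 5 or with Csn8AKO replicate 4 or 5 left out (adjusted p = 0.0553, 0.0594 and 0.0516). F3 did not pass the test, at 40.4 to 73.4 CPM against 51.3 to 85.9 (log2 fold change -0.31 ± 0.18 SE, edgeR adjusted p = 0.220). Without both libraries that held muscle RNA, the same markers were called in the same directions. The number of all genes called in that fit is given only as part of the range in the last section.

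**Figure D3:**
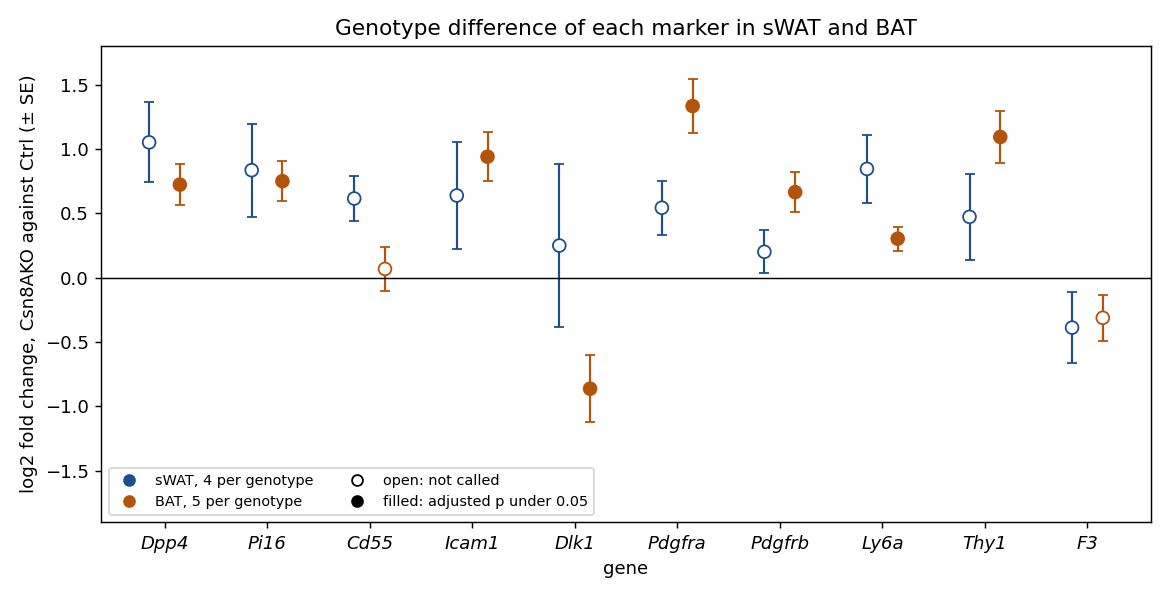
Log2 fold change of each gene in Csn8AKO against Ctrl mice, with its standard error, in sWAT (blue, 4 against 4) and BAT (orange, 5 against 5). Filled points passed an adjusted p of 0.05, which 8 of the 10 did in BAT and 0 in sWAT. Dlk1 is the gene whose estimates lie on opposite sides of 0, at 0.25 and -0.86.

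General fibroblast genes rose in the same libraries. All 14 fibroblast matrix genes were higher in Csn8AKO BAT (median log2 fold change 1.19), and their summed level was 1718 to 2791 CPM in Ctrl and 4134 to 6987 CPM in Csn8AKO mice. Scaled to these genes, where the median of all genes moved to -1.17, 0 of the markers were higher and 5 lower, against 1.51% and 81.5% of all genes. The 5 were Dlk1 (log2 fold change -2.12, edgeR adjusted p = 2.01e-10), F3 (-1.49, adjusted p = 1.42e-08), Cd55 (-1.14, adjusted p = 8.98e-06), Ly6a (-0.87, adjusted p = 1.09e-04) and Pdgfrb (-0.57, adjusted p = 0.0166). Pdgfra (0.12), Thy1 (-0.11), Icam1 (-0.31), Pi16 (-0.42) and Dpp4 (-0.45) then had adjusted p of 0.0660 to 0.603. The summed level of 12 macrophage genes moved with the markers too, from 124 to 174 CPM in Ctrl to 437 to 648 CPM in Csn8AKO BAT, and so did that of 12 T cell genes, from 6.01 to 10.8 CPM to 11.0 to 19.2 CPM. The T cell sums did not overlap between the genotypes. With the mean level of B and T cell genes as a covariate 1 marker, Pi16, was called higher (log2 fold change 0.85) and 0 lower, where 5.23% and 6.42% of all genes were. Pdgfra was then at 0.82 (log2, edgeR adjusted p = 0.0615), Ly6a at 0.35 against 0.30 without the covariate (adjusted p = 0.136), and Dlk1 at -1.21 against -0.86 (adjusted p = 0.0864), so that calls were lost also where the fold had not become smaller. The part of other cell types in these differences was not tested.

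In sWAT no marker passed the test. The count was 0 of 10 with edgeR's quasi-likelihood test (adjusted p under 0.05 over 18843 genes), where 2.30% of all genes were higher and 3.00% lower, and 0 of 10 had genotypes that did not overlap, against 13.6% of all genes. Of the 10 estimates, 9 were above 0, with a median log2 fold change of 0.58 against 0.03 over all genes. At an unadjusted p under 0.05, for which the share of all genes was not counted, there were 5: Pdgfra, Ly6a, Dpp4, Pi16 and Cd55. DESeq2 called 3 of them higher, Dpp4 (adjusted p = 0.0120), Cd55 (adjusted p = 0.0193) and Ly6a (adjusted p = 0.0276), where it called 4.84% of all genes higher. Limma voom with quality weights called Dpp4 and Ly6a, and 5.72% of all genes higher. The summed level of 12 macrophage genes moved with the genotype, from 1186, 1290, 1487 and 1709 CPM in Ctrl to 3519, 1940, 3340 and 2330 CPM in Csn8AKO sWAT, with no overlap, and 8 of the 12 were called higher by edgeR. Within the Csn8AKO libraries these sums had the same order as Dpp4. The part of macrophages in the sWAT values was not tested.

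The 4 Csn8AKO sWAT libraries differed widely among themselves, and 1 of them lay at or below the Ctrl level of the early markers. Dpp4 was at 173, 56.4, 154 and 84.7 CPM in Csn8AKO mice against 45.2 to 61.9 CPM in Ctrl mice (log2 fold change 1.05 ± 0.31 SE, edgeR adjusted p = 0.0906). Pi16 was at 475, 135, 548 and 292 CPM against 156 to 245 CPM (log2 fold change 0.83 ± 0.36 SE, edgeR adjusted p = 0.233). In both it was replicate 2, the Csn8AKO library rich in B and T cell RNA, that fell among or below the Ctrl libraries, and the other 3 lay above all of them. For Cd55, at 80.2, 71.8, 63.8 and 47.3 CPM against 37.4 to 49.0 CPM, the library within the Ctrl range was replicate 4 (log2 fold change 0.61 ± 0.17 SE, edgeR adjusted p = 0.0712).

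Without Csn8AKO replicate 2, 3 markers were called higher in sWAT, Dpp4 (log2 fold change 1.27, edgeR adjusted p = 0.0116), Pi16 (1.10, adjusted p = 0.0156) and Ly6a (1.00, adjusted p = 0.0364). Without both libraries rich in B and T cell RNA, which left 3 against 3 mice, the 3 called were Dpp4 (1.3, adjusted p = 0.0176), Pi16 (1.01, adjusted p = 0.0196) and Thy1 (0.52, adjusted p = 0.0363). Without replicate 4, Cd55 was called (0.73, adjusted p = 0.0259). The fit without both libraries was chosen after their values had been seen, while the others belong to leaving out each library in turn. Of all genes, 4.19% were called higher without replicate 2, 5.35% without both and 1.98% without replicate 4.

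The committed markers gave no clear difference in sWAT. Icam1 was at 17.8, 52.3, 18.6 and 21.3 CPM in Csn8AKO mice and 27.4, 15.3, 15.9 and 13.1 CPM in Ctrl mice (log2 fold change 0.64 ± 0.41 SE, edgeR adjusted p = 0.446). The highest library of each genotype was the one rich in B and T cell RNA. Dlk1 remained near its limit of detection, at 0.182, 0.670, 1.81 and 1.01 CPM on 4 to 27 reads, and overlapped Ctrl mice throughout (log2 fold change 0.25 ± 0.63 SE, edgeR adjusted p = 0.874). Few reads and the spread between mice cannot be told apart here, and the sign of the Dlk1 estimate turned when either Ctrl replicate 3 or Csn8AKO replicate 3 was left out (-0.04 and -0.30).

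Pdgfra was at 329, 185, 296 and 189 CPM in Csn8AKO sWAT against 160.2, 143, 183 and 200.3 CPM in Ctrl sWAT (log2 fold change 0.54 ± 0.21 SE, edgeR adjusted p = 0.177). Ly6a ranged from 100.1 to 226 CPM against 74.5 to 112 CPM (log2 fold change 0.84 ± 0.26 SE, edgeR adjusted p = 0.1001). For Thy1 (47.7 to 105 against 36.3 to 80.8 CPM) and Pdgfrb (75.7 to 124 against 79.2 to 104 CPM) the log2 fold changes were 0.47 ± 0.34 SE and 0.20 ± 0.17 SE. F3, at 10.6 to 29.1 against 20.4 to 37.5 CPM, had the one negative estimate (-0.39 ± 0.28 SE, edgeR adjusted p = 0.491). In the 14 fibroblast matrix genes the median was 0.50 and 1 gene, Lum, was higher. Scaled to those genes, where the median of all genes was -0.43, 1 marker was lower, F3 (log2 fold change -0.97, edgeR adjusted p = 0.0306), where 10.2% of all genes were, and Dpp4 was at 0.41 (adjusted p = 0.284).

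A model of all 18 libraries with a term for genotype by tissue asked whether the genotype difference itself was unlike in the depots. None of the 10 was called (edgeR adjusted p from 0.220 to 0.971), where 1.61% of all genes had a significantly higher and 0.755% a lower difference in BAT. At an unadjusted p under 0.05, for which the share of all genes was not counted, there were 2, and DESeq2 and limma voom called 0. The 2 were Pdgfra, with a difference of 0.77 ± 0.31 SE on the log2 scale (edgeR adjusted p = 0.220), and Cd55, with -0.56 ± 0.24 SE (adjusted p = 0.260). For Dlk1 the difference of -1.11 was not larger than its error allowed (SE 0.65, edgeR adjusted p = 0.447). The calls in BAT and their lack in sWAT are therefore not shown to be a difference between the depots, and the sWAT fit had fewer mice and a wider spread.

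The balance of early and committed markers was described by the mean log2 CPM of Dpp4, Pi16 and Cd55 minus that of Icam1 and Dlk1. It was 4.48 ± 0.61 (SD, n = 4) in Ctrl and 4.90 ± 1.18 (n = 4) in Csn8AKO sWAT, and -0.51 ± 0.32 (n = 5) in Ctrl and 0.06 ± 0.50 (n = 5) in Csn8AKO BAT. The depots were far apart, from 3.73 to 6.50 in sWAT and from -0.85 to 0.91 in BAT, while the genotypes overlapped in both. With the library rich in B and T cell RNA left out, the mean of Ctrl sWAT was 4.65 (without replicate 1). That of Csn8AKO sWAT was 5.29 (without replicate 2). Without replicate 2 the mean of Csn8AKO BAT was -0.15, so that its sign rests on that library. Against Icam1 alone the value in BAT went down with the genotype, from -0.30 ± 0.37 to -0.68 ± 0.34, and against Dlk1 alone it went up, from -0.72 ± 0.30 to 0.80 ± 0.66. The 2 committed markers therefore gave opposite answers in BAT, and their mean hides both. No test was made of this balance.

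**Figure D4:**
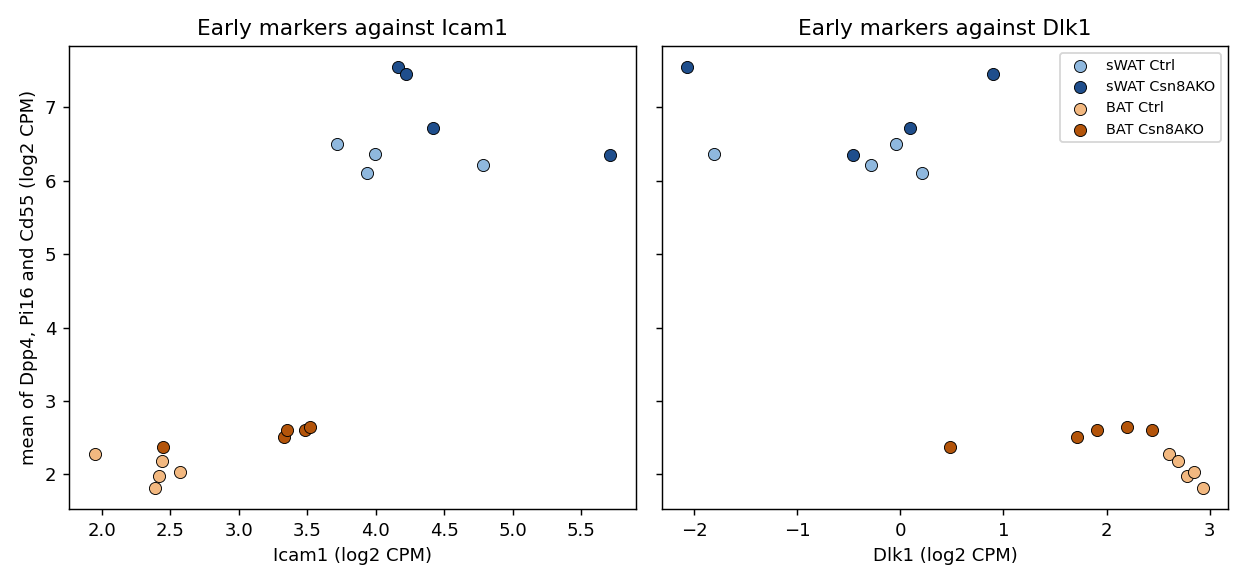
Mean log2 CPM of Dpp4, Pi16 and Cd55 in each library against Icam1 (left) and Dlk1 (right, log2 CPM). The sWAT libraries lie above 6 and the BAT libraries below 3 on the vertical axis. Within BAT, Csn8AKO libraries lie above Ctrl and to the right for Icam1, apart from 1 library, but to the left for Dlk1.

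Other genes known from the same populations were counted by list. Of 21 further early progenitor genes, 19 were tested in BAT, and 15 were higher and 1 lower in Csn8AKO mice (median log2 fold change 1.19), against the 16.0% and 15.8% of all genes. Fn1, fibronectin, went from 65.7 ± 2.84 to 227 ± 37.2 CPM (SD, n = 5 each, log2 fold change 1.81, edgeR adjusted p = 1.21e-07), and Emilin2, a matrix glycoprotein, from 5.94 ± 0.780 to 14.9 ± 2.07 CPM (1.35, adjusted p = 4.96e-06). The one that fell was Limch1, at 30.4 ± 7.15 and 15.2 ± 2.7 CPM (-0.98, adjusted p = 6.36e-04), named after its value was seen. In sWAT 0 of the 21 passed the test with edgeR although all 21 estimates were above 0 (median 0.81, lowest adjusted p = 0.0544, of Gfpt2). DESeq2 called 2 of them higher and limma voom 10, where they called 4.84% and 5.72% of all genes higher. Without Csn8AKO replicate 2 the count was 15, and without both libraries rich in B and T cell RNA it was 17. Of all genes, 4.19% and 5.35% were called higher in those fits. Between depots of Ctrl mice 19 of the 21 were lower in BAT and 1, Ackr3, was higher, against 25.7% and 25.9% of all genes.

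Of 17 further genes of committed preadipocytes, 7 were higher and 2 lower in Csn8AKO BAT (median 0.40), and the lower share is no larger than the 15.8% of all genes. Vcam1, an adhesion molecule like ICAM1, rose from 8.42 ± 1.37 to 26.6 ± 2.64 CPM (log2 fold change 1.69, edgeR adjusted p = 5.51e-07), and Col4a2, a basement membrane collagen, rose by 1.00 on the log2 scale (adjusted p = 1.49e-05). The 2 that fell were Ebf2 and Zfp423, which encode transcription factors of preadipocytes: Ebf2 went from 114 ± 15.2 to 75.2 ± 7.00 CPM (-0.58, adjusted p = 6.03e-04) and Zfp423 from 61.0 ± 12.0 to 39.5 ± 4.29 CPM (-0.61, adjusted p = 0.00239). Ebf2, like Dlk1, was also higher in BAT than in sWAT of Ctrl mice (log2 fold change 1.22, adjusted p = 4.13e-04). In sWAT 2 of the 17 were lower and 0 higher (median -0.12), Hsd11b1 (-1.13, edgeR adjusted p = 0.0201) and Aoc3 (-1.15, adjusted p = 0.0337), the latter also abundant in adipocytes, of whose 12 markers 6 were lower in sWAT. Of 7 further genes of the F3-positive population, 4 were higher in Csn8AKO BAT, among them Abcg1 (1.67, adjusted p = 5.48e-08) and Gdf10 (1.79, adjusted p = 8.51e-06), unlike F3 itself, and 0 were called in sWAT. Both also passed the test of the interaction (edgeR adjusted p = 0.0261 and 0.0382). Macrophage genes rose in the same libraries, and the cells behind the rise of Abcg1 or Gdf10 were not identified.

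**Figure D5:**
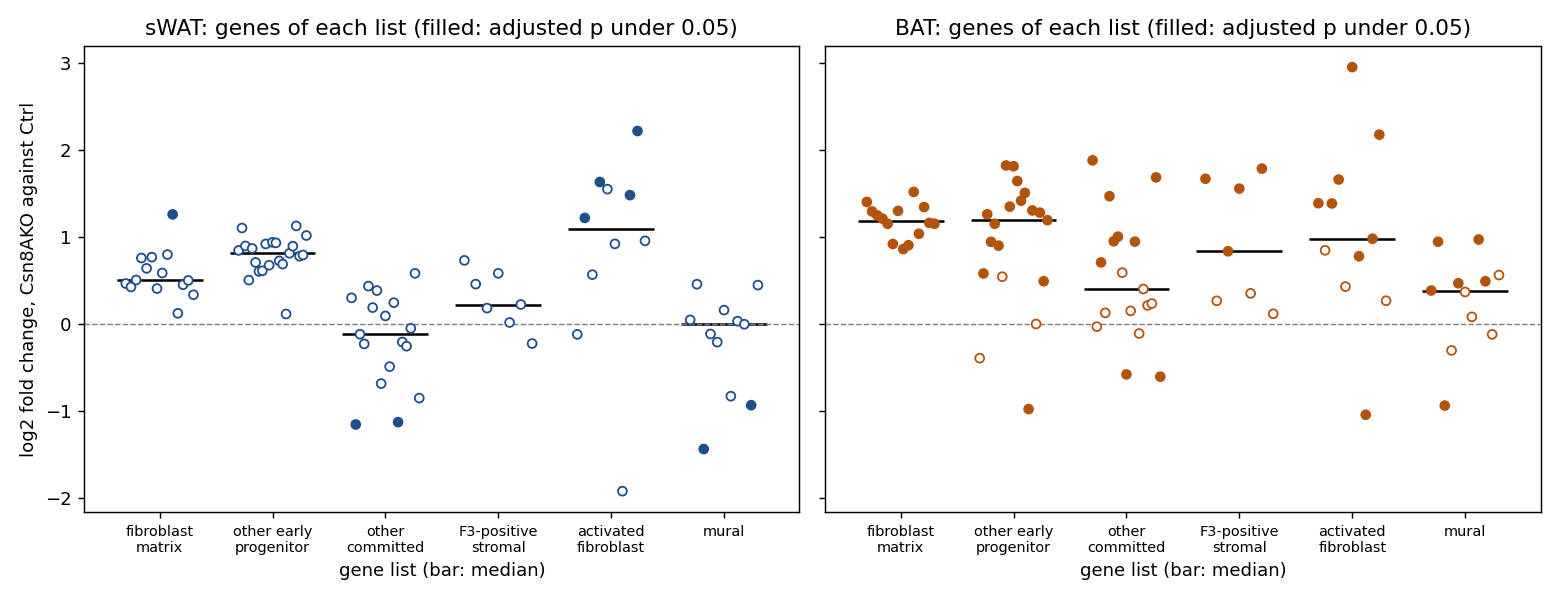
Log2 fold change in Csn8AKO against Ctrl mice of the tested genes of 6 lists, in sWAT (left) and BAT (right), with a bar at each median and filled points past an adjusted p of 0.05. In BAT the fibroblast matrix list is wholly filled above 0 (14 genes). The committed list has 7 filled points above 0 and 2 below, and 13 of its 17 genes lie above 0. In sWAT the 21 early genes all lie above 0 and none is filled.

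Genes that act with the members were counted as well. Of all genes tested, 16.0% were called higher and 15.8% lower in BAT, and 2.30% and 3.00% in sWAT. ICAM1 binds leukocyte integrins, and Itgam and Itgb2, which encode the chains of one of them, were higher in both tissues (log2 fold change 1.21 and 1.25 in sWAT, edgeR adjusted p = 0.00632 and 0.0199, and 1.68 and 2.27 in BAT, adjusted p = 0.00141 and 3.46e-07). Of 6 genes of the tissue factor pathway, F7, the coagulation factor that tissue factor binds, and F10, which that complex activates, were higher in sWAT (2.40 and 1.90, adjusted p = 0.0166 and 0.0475) and in BAT (1.56 and 2.17, adjusted p = 0.0106 and 0.00123), while F3 was not called in either. For the PDGF receptors, of the 4 ligand genes Pdgfb was higher in BAT (0.59, adjusted p = 0.0200), Pdgfd was lower there (-0.89, adjusted p = 4.68e-04) and 0 were called in sWAT. Of 5 other genes that limit complement, 1 was higher and 2 lower in BAT. The 2 were Cd46 and Cr1l, which like Cd55 act on the cell surface (-0.48 and -0.25, edgeR adjusted p = 0.0113 and 0.0251). The gene called higher had the smallest adjusted p of the 5. Of 14 imprinted growth genes, the class to which Dlk1 belongs, 5 were higher and 0 lower in BAT, Plagl1 first (1.39, adjusted p = 1.97e-04), and 3 were higher in sWAT, Peg10 (1.85, adjusted p = 0.00269), Mest (2.15, adjusted p = 0.0218) and H19 (1.58, adjusted p = 0.0272). Meg3, Rian and Mirg, which share an imprinted cluster with Dlk1, were not called in either tissue.

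Among activated fibroblast genes, 4 of 10 tested were higher in sWAT, with Adam12 going from 45.8 ± 4.03 to 106 ± 15.5 CPM (log2 fold change 1.22, edgeR adjusted p = 0.00180) and Cdh11 from 4.01 ± 1.33 to 12.4 ± 1.99 CPM (1.63, adjusted p = 0.00783), and 7 were higher and 1 lower of 11 in BAT. Of 11 mural genes, which share Pdgfrb, 5 were higher and 1 lower in BAT, where Pdgfrb was higher too. There 8 of the 11 estimates lay above 0 (median log2 fold change 0.385). In sWAT, where Pdgfrb was not called, 2 were lower and 0 higher. Rgs5 went there from 147 ± 11.2 to 76.7 ± 11.8 CPM (-0.93, edgeR adjusted p = 0.00637) and Cspg4 from 215 ± 67.2 to 79.0 ± 27.5 CPM (-1.44, adjusted p = 0.0155). Endothelial genes, some of whose cells carry Ly6a and Icam1, were higher for 4 of 11 in BAT and for 0 in sWAT, and summed to 669 to 821 and 514 to 854 CPM in Ctrl and Csn8AKO sWAT. Mesothelial genes were nearly absent, with sums of at most 15.3 CPM in any library. Of 6 genes related to DPP4 or binding it, 3 were higher in BAT, and of 5 other Ly6 genes tested 0 were called there. The shares of all genes called higher and lower were 16.0% and 15.8% in BAT, and 2.30% and 3.00% in sWAT.

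The genes whose profile over the 18 libraries was closest to each of 5 members were found by the root mean square difference of centred log2 CPM, among 12721 named genes. Nearest to Dpp4 were Cd209f (0.28), Adgrd1 (0.29) and Cd209g (0.37), and nearest to Pi16 were Islr2 (0.22), Pcolce2 (0.30) and Sema3c (0.36). Sema3c is itself on the early list, and ran at 66.9 ± 11.3 and 146 ± 74.3 CPM in Ctrl and Csn8AKO sWAT and at 3.11 ± 0.763 and 7.41 ± 0.590 CPM in BAT. Nearest to Cd55 were Csf1 (0.32), Cd86 (0.33) and Trim30d (0.37), and to Icam1 Cnn2 (0.22), Prex1 (0.24) and Panx1 (0.25). Nothing ran as close to Dlk1, whose nearest were Nectin2 (0.65), Zfp827 (0.65) and Ano1 (0.69), all 3 higher in BAT and lower there in Csn8AKO than in Ctrl mice on average, Ano1 from 129 ± 19.04 to 55.7 ± 15.8 CPM. The likeness mostly reflects the gap between the depots, since the libraries fall into 2 separate sets, and Dlk1 has few reads in one of them.

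Some of the counts share sequence or position with other genes. Genes on the opposite strand overlap exons of Pdgfra (Gm42802 and Gm42803), Dpp4 (Gm13561), Pi16 (AC162182.1), Cd55 (Gm16083) and Icam1 (Gm47079, over 511 bases), and since it is not stated whether counting used the strand, reads of each pair may not be separable. Of the 75-base stretches of its transcripts, Cd55 shares 5.53% with Cd55b, Ly6a 5.87% with Ly6c1 and Icam1 10.2% with Gm47079, and only uniquely aligned reads were counted. Cd55b and Ly6c1 were not called in either tissue, with log2 fold changes in BAT of 0.39 and -0.20 (edgeR adjusted p = 0.456 and 0.419).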

How the data were processed

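RNA was sequenced by the study from whole sWAT and BAT after removal of ribosomal RNA. The authors aligned the reads to GRCm38 (Ensembl release 101) with STAR and assigned uniquely aligned reads to genes with featureCounts, and whether the strand was used is not stated. The authors deposited for each library the read count of each gene, without normalization, which is the one measure used here. The deposited CPM, FPKM and TPM, scaled by the authors from those counts by library total and by gene length, were not used. The 18 libraries were grouped by the tissue and genotype in their labels.

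Counts were compared with edgeR 4.0.16 (TMM factors, filterByExpr with a minimum count of 10, robust quasi-likelihood fit, Benjamini-Hochberg adjustment over all genes tested) within each tissue, and over the 4 groups for the depot and the interaction. Log2 CPM used a prior count of 2. The members and gene lists were chosen with earlier results of these data known. Values are given for all members, for up to 2 genes of smallest adjusted p per list and tissue, and for the 3 nearest profiles of 5 members, and other genes were named after their values were seen. The result of 1 listed gene is not reported here. Alternatives were other scalings and filters, DESeq2 1.42.0, limma 3.58.1 voom, ribosomal RNA genes left out, a covariate or scaling from marker genes, a replicate term, and each library left out. The p-values measure the spread between these libraries, and read counts without molecular identifiers are not counts of molecules. Replicate libraries were not duplicates of one another: the smallest median squared deviation in a group was 2.30, against 0.455 for a library sequenced again. Gene positions are those of GENCODE M21, which holds 55227 of the 55487 genes, and sequences are from RefSeq.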

Additional observations from a re-analysis of the deposited data

Results flagged for a closer look

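In 44 sets of 4 or 5 libraries (each marker and the early-minus-committed difference in each group), Dixon's test at the 95% level set 7 single libraries apart, where chance sets apart about 1 in 20. Csn8AKO replicate 2 of BAT accounted for 3 of them: Pdgfrb at 136.1 CPM against 227.4 to 247.2 in the other 4, Icam1 at 5.409 CPM against 9.995 to 11.39, and the early-minus-committed difference at 0.9126 against -0.3562 to -0.008139. That library also had the lowest sum of the 14 fibroblast matrix genes in its group, 4134 CPM, and 15.1% ribosomal RNA reads. Left out, it moved the log2 fold changes of Pdgfra and Pdgfrb to 1.48 and 0.79, and 7 markers remained higher. In that fit 4040 of 22826 genes tested were called higher.

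In sWAT the 2 libraries rich in B and T cell RNA stood apart, Ctrl replicate 1 for Thy1 (80.75 CPM against 36.32 to 40.27) and Csn8AKO replicate 2 for Icam1 (52.32 CPM against 17.81 to 21.27). Without Csn8AKO replicate 2, the log2 fold change of Icam1 in sWAT was 0.08, and without Ctrl replicate 1 it was 0.94. In Ctrl BAT, replicate 1 was high for Dpp4 (1.915 CPM against 1.372 to 1.526) and replicate 2 low for Pi16 (4.753 CPM against 8.336 to 9.349).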

How the results depend on the processing

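Over all alternatives, 930 of 1000 values of a single marker kept their direction and their side of the threshold. Of the rest, 18 came to pass it, 20 no longer passed it and 32 changed sign. The 1000 include depot fits without a Csn8AKO library, which that contrast does not use. They also include the difference between tissues, where 0 markers were called, so the total is no measure of the genotype results. In sWAT, where 0 were called, DESeq2 and the fit of all 4 groups each called 3 higher, limma voom 2, the B and T cell covariate 1, the fit without both libraries rich in B and T cell RNA 3, and leaving out 1 library 0 to 3. In BAT the 7 higher and 1 lower became 1 and 0 with the covariate, 0 and 5 with scaling to the fibroblast genes, and 6 to 7 and 0 to 1 with 1 library left out. Library-size scaling and the fit of all 4 groups called 0 lower there, and the latter 5 higher. Of all genes, DESeq2 called 4.84% higher in sWAT and limma voom 5.72%. Without both libraries rich in B and T cell RNA 5.35% were higher. In BAT 5.23% were higher and 6.42% lower with the covariate, and 1.51% and 81.5% with scaling to the fibroblast genes. For the other settings all genes called are given mostly as ranges, so that not every marker count has a share beside it. The depot counts of 3 and 7 became 4 and 3 with scaling to the fibroblast genes and 2 and 7 with library-size scaling, and were the same under the others.

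Scaling to the fibroblast genes turned the sign in sWAT of Pdgfra (-0.0088), Pdgfrb (-0.24) and Dlk1 (-0.25) and called F3 lower (1 marker), in BAT that of Ly6a (-0.87), Thy1 (-0.11), Pdgfrb (-0.57), Dpp4 (-0.45), Pi16 (-0.42), Cd55 (-1.14) and Icam1 (-0.31), and between depots that of Ly6a (0.89) and Icam1 (0.59). Values near 0 turned too: Cd55 in BAT with the covariate (-0.44), without both libraries with muscle RNA (-0.13) and with 1 library left out (-0.032 to 0.15), and Dlk1 in sWAT (-0.30 to 0.62). The difference between tissues turned for Pi16 with library-size scaling (0.19), the covariate (0.021) and 1 library left out (-0.38 to 0.16), and for F3 with limma voom (-0.020), without both libraries rich in B and T cell RNA (-0.16), without both with muscle RNA (-0.043) and with 1 library left out (-0.16 to 0.27). The cause of these changes was not tested beyond what each construction fixes. With Icam1 or Dlk1 alone as the committed marker, the early-minus-committed difference was 2.19 or 6.77 in Ctrl and 2.39 or 7.40 in Csn8AKO sWAT, and -0.68 or 0.80 in Csn8AKO BAT.

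Replicate numbers did not pair the libraries: same-numbered libraries correlated between -0.38 and 0.22 in sWAT and between -0.10 and 0.11 in BAT, and 0 of 4 and 2 of 5 were closest to their own number. With a replicate block, 0 markers were called in sWAT, 7 higher and 1 lower in BAT, the difference between tissues of Pi16 was 0.088, and all genes called fell from 434 higher and 566 lower to 134 and 165 in sWAT. All genes called in BAT with that block are given only within the range below. The depot comparison with a replicate block was not run, since no number spans the depots in one mouse. Scaling to the fibroblast genes was not run for the difference between tissues.

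Counts over all genes moved more. Over the alternatives other than leaving out 1 library, genes called higher and lower ran from 86 to 1077 and 165 to 1917 in sWAT, from 338 to 4496 and 1434 to 18211 in BAT (3585 and 3536), from 2893 to 19250 and 805 to 6225 between depots (5823 and 5774), and from 208 to 737 and 39 to 355 for the difference between tissues (362 and 170). Scaled to the fibroblast genes, 4.29% of calls were higher in sWAT, 1.82% in BAT and 96% between depots, against 43.4%, 50.3% and 50.2%, and library-size scaling gave 24.4%, 66.7% and 33.7%. The fits without libraries rich in B and T cell RNA or with muscle RNA were chosen after seeing the data. For muscle RNA only BAT libraries were left out, though sWAT libraries held more of it. With 1 library left out, genes called in sWAT ran from 147 (without Csn8AKO replicate 3) to 804 higher and from 179 to 673 lower. Dlk1 rests on 4 to 27 reads a library in sWAT, and depth was not separated from the spread between mice.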
